A study of Mus musculus with 12 samples.

Results

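Adhesion G protein-coupled receptors (GPCRs) were examined in intestinal dendritic cells (DCs) from mice labelled wild type or Cbfb-cKO, the latter carrying a conditional knockout of the gene for the Runx partner subunit Cbfβ. The list held 10 genes, of 53801 in the count files, and 9 are described here: *Adgre1*, *Adgre4*, *Adgre5*, *Adgrl1*, *Adgrl2*, *Adgrl3*, *Adgrg1*, *Adgrg3* and *Adgrg6*. They were chosen by name from a list made with earlier results of the same 12 libraries in view, and the list names no threshold. Calls below are therefore a description of these genes in a fit across all genes, not independent evidence about the family. All 10 matched a GENCODE gene by symbol, and all 10 were among the 20580 genes tested.

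DCs were sorted from the gut of mice on a mixed background, by surface CD103 and CD11b, into CD103+CD11b- and CD103-CD11b+ cells. Each subset came from mice labelled wild type (WT) and from mice labelled Cbfb-cKO, with 3 libraries in each of the 4 groups, and the labels give no treatment and no age. The study describes the cKO mice as homozygous for a floxed *Cbfb* allele with a CD11c-Cre transgene, the 3 samples of a group as cells of separate mice, and the tissue as small intestine. Whether the WT mice also carried the transgene is not given in the sources used here. Gut cDCs are defined there as CD45+CD64-CD11c+MHC-II+ cells before the split by CD103 and CD11b, a gate that would leave out cells without CD45, such as endothelium and stroma, and cells with CD64. It also describes recombination by this transgene in a part of the gut CD4+ T cells. RNA from small sorted pools was made into total RNA libraries and counted on genes without regard to strand.

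Adhesion GPCRs have a long extracellular part that binds other cells or matrix, a domain at which the protein cuts itself, and a 7-pass membrane part. The stub left by the cut can act as a tethered agonist that turns on heterotrimeric G proteins. The Adgre group (EGF-TM7 receptors) is found mainly on leukocytes, latrophilins (Adgrl) are best known at synapses, and the Adgrg group ranges from granulocytes and lymphocytes to glia. *Adgre1* encodes F4/80, the antigen long used to recognise mouse macrophages.

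*Cbfb* itself did not separate the genotypes over the whole gene. It ranged from 161 to 228 CPM in the 6 WT libraries and from 170 to 290 CPM in the 6 libraries labelled cKO, which leaves the labels unchecked by the targeted gene. CPM are counts scaled to library size with edgeR's TMM method, and libraries held 2161929 to 5863484 counts on genes. A limit of 3 counts, below which a level is not told from 0 here, corresponded to 0.485 to 1.53 CPM. The 7 markers of cDC1 cells summed to 2860 to 4740 CPM in the CD103+CD11b- libraries and 380 to 758 CPM in the CD103-CD11b+ libraries, in the direction of the sort. Markers of cells other than DCs were present in every group. The 5 endothelium markers (*Cdh5*, *Kdr*, *Tie1*, *Emcn* and *Pecam1*) summed to 75.1 to 383 CPM in CD103+CD11b- and to 347 to 3180 CPM in CD103-CD11b+ libraries, with none at 0 in a whole group. Much of the lower sums was *Pecam1*, at a mean of 155 CPM in WT and 61.6 CPM in cKO CD103+CD11b- libraries, where *Emcn* averaged 4.7 and 4.15 CPM. The 5 stroma markers were at 388 CPM in WT CD103+CD11b- replicate 3 against 16.5 and 19.1 CPM in the other two, and at 51.0 CPM in cKO CD103-CD11b+ replicate 3 against 402 and 1290 CPM. These 2 libraries stood apart, and values without both are given beside the calls that this changes.

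Promoter sequences are shown for the 2 genes that differed most between genotypes, because Cbfβ acts by binding DNA-bound Runx proteins. RefSeq windows of 300 bases (GRCm38.p6, 250 bases before a start site to 50 after) were found for 8 of the 10 genes, in 11 windows. They were searched on both strands for the Runx core letters TGTGGT and TGCGGT, 2 motifs that cannot match at the same place on the same strand. The capitals mark the match, and both stretches are read on the plus strand.
Adgre4 (chr17:55749734-55749993, ending 10 bases past the start): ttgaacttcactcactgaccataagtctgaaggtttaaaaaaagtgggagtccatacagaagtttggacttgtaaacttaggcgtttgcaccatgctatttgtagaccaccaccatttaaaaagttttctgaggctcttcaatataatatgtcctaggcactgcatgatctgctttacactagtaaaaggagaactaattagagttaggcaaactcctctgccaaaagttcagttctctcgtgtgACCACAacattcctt
Adgrl3 (chr5:81021353-81021592, before the most downstream of its RefSeq starts): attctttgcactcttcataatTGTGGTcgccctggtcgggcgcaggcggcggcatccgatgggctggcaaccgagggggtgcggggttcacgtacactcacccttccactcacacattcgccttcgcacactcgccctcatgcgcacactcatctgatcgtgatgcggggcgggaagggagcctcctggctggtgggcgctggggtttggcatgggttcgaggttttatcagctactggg
In *Adgre4* the match lay on the reverse strand and began 5 bases before the start site. In *Adgrl3* it began 219 bases before the most downstream start, and the 2 windows at the other starts held no match. Of the other genes described, *Adgrl2* had 1 match. A match was thus found in 4 of 8 genes with a window, against 24.8% of 12580 tested genes with a window. No binding was measured, and a match is a description of the letters only.

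Levels between genes were compared per kilobase of exon (RPKM, from TMM-scaled libraries and GENCODE exon lengths). *Adgre5*, which encodes CD97, was the highest of the 9 genes in every group. Mean *Adgre5* was 96.2 ± 12.4 RPKM in WT CD103+CD11b-, 109 ± 29.2 in cKO CD103+CD11b-, 82.2 ± 8.58 in WT CD103-CD11b+ and 133 ± 46.6 in cKO CD103-CD11b+ DCs (SD, n = 3). In CD103+CD11b- DCs of either genotype every other gene described had a mean of 5.24 RPKM or less.

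In WT CD103-CD11b+ DCs *Adgre5* was followed by *Adgrg1* at 34.1 ± 16.1 RPKM, then *Adgre1* at 16.0 ± 7.16. The 6 genes below ran from 12.3 ± 9.53 RPKM for *Adgrl2* to 3.65 ± 4.78 for *Adgrg3*, and no neighbours in this order from *Adgrg1* down differed by more than the sum of their SDs. In cKO CD103-CD11b+ DCs the order behind *Adgre5* was another one. *Adgre1* had 60.8 ± 15.7 RPKM, *Adgre4* 58.0 ± 8.35 and *Adgrl3* 23.9 ± 5.0 (SD, n = 3), and *Adgrg1* followed. *Adgre1* and *Adgre4* did not differ beyond their spread there.

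**Figure D1:**
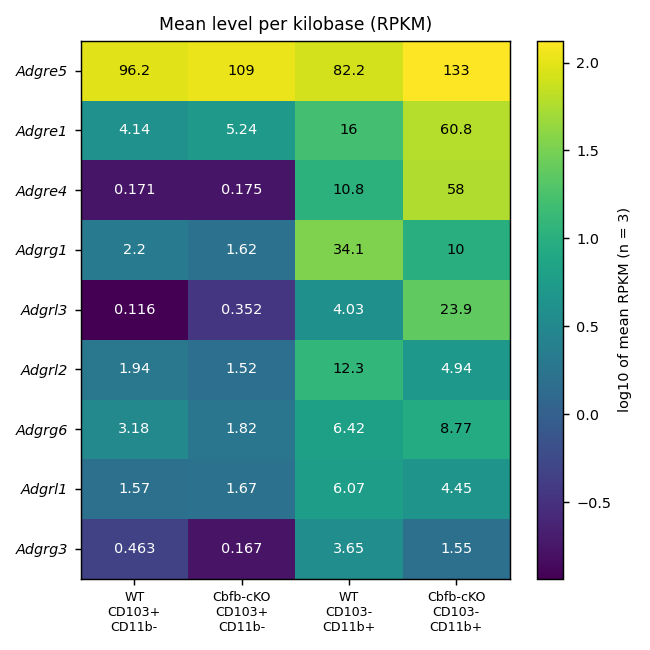
Mean level per kilobase (RPKM, n = 3 libraries) of the 9 adhesion GPCR genes described (rows) in the 4 groups (columns), with colour on a log10 scale and the mean printed in each cell. *Adgre5* lies between 82.2 and 133 RPKM in every group, while *Adgre4* goes from 0.171 RPKM in WT CD103+CD11b- to 58.0 in cKO CD103-CD11b+ DCs.

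The first question was which of the 10 genes differed between cKO and WT libraries of the CD103-CD11b+ subset. *Adgrl3*, *Adgre4* and *Adgre1* were higher in the cKO libraries, and none of the 10 was called lower. A gene was called at an adjusted p under 0.05 and a fold change over 1.3 in the quasi-likelihood test of edgeR, adjusted over all genes by the Benjamini-Hochberg method. Of all tested genes 1.61% were called in this comparison, 1.11% as higher, and since the list was drawn up with this comparison known, nothing is read from 3 of 10. The median log2 fold change was 0.17 over the 10 genes and -0.06 over all tested genes.

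*Adgrl3* (ENSMUSG00000037605, chr5:81020138-81825133, plus strand) encodes latrophilin-3, which binds teneurins and FLRT proteins and is best known in the nervous system. Its level was 59.5, 91.0 and 64.3 CPM in WT and 324, 492 and 457 CPM in cKO CD103-CD11b+ libraries. The lowest cKO library lay above the highest WT library. The fold change was 5.94 (log2 2.57, standard error 0.22, adjusted p = 0.000613 by edgeR's quasi-likelihood test). The call held without any single library, where the log2 value ran from 2.45 to 2.79.

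*Adgre4* (ENSMUSG00000032915, chr17:55749984-55853662, plus strand) encodes an EGF-TM7 receptor of myeloid cells. The WT CD103-CD11b+ libraries had 38.4, 49.6 and 25.3 CPM and the cKO libraries 178, 235 and 195 CPM. Again the groups did not overlap. The fold change was 5.36 (log2 2.42, standard error 0.28, adjusted p = 0.00234 by edgeR's quasi-likelihood test), and the call held without any single library, with log2 values from 2.22 to 2.67.

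*Adgre1* (ENSMUSG00000004730, chr17:57358691-57483527, plus strand), the F4/80 gene, had 50.1, 76.0 and 29.7 CPM in WT and 140, 237 and 215 CPM in cKO CD103-CD11b+ libraries. All 3 cKO libraries were above all 3 WT libraries. The fold change was 3.80 (log2 1.93, standard error 0.38, adjusted p = 0.0336 by edgeR's quasi-likelihood test). This call was less firm than the other two. All 4 groups share 1 estimate of the spread, and the adjusted p rose to between 0.0518 and 0.0952 when 1 of 6 libraries was left out, namely WT CD103+CD11b- replicate 1 or 2, WT CD103-CD11b+ replicate 1 or 3, or cKO CD103-CD11b+ replicate 2 or 3. The log2 value stayed between 1.67 and 2.30 over all 12 such fits. Without both libraries that stood apart it was 1.86, and the gene was not called (adjusted p = 0.0682 by the same test).

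**Figure D2:**
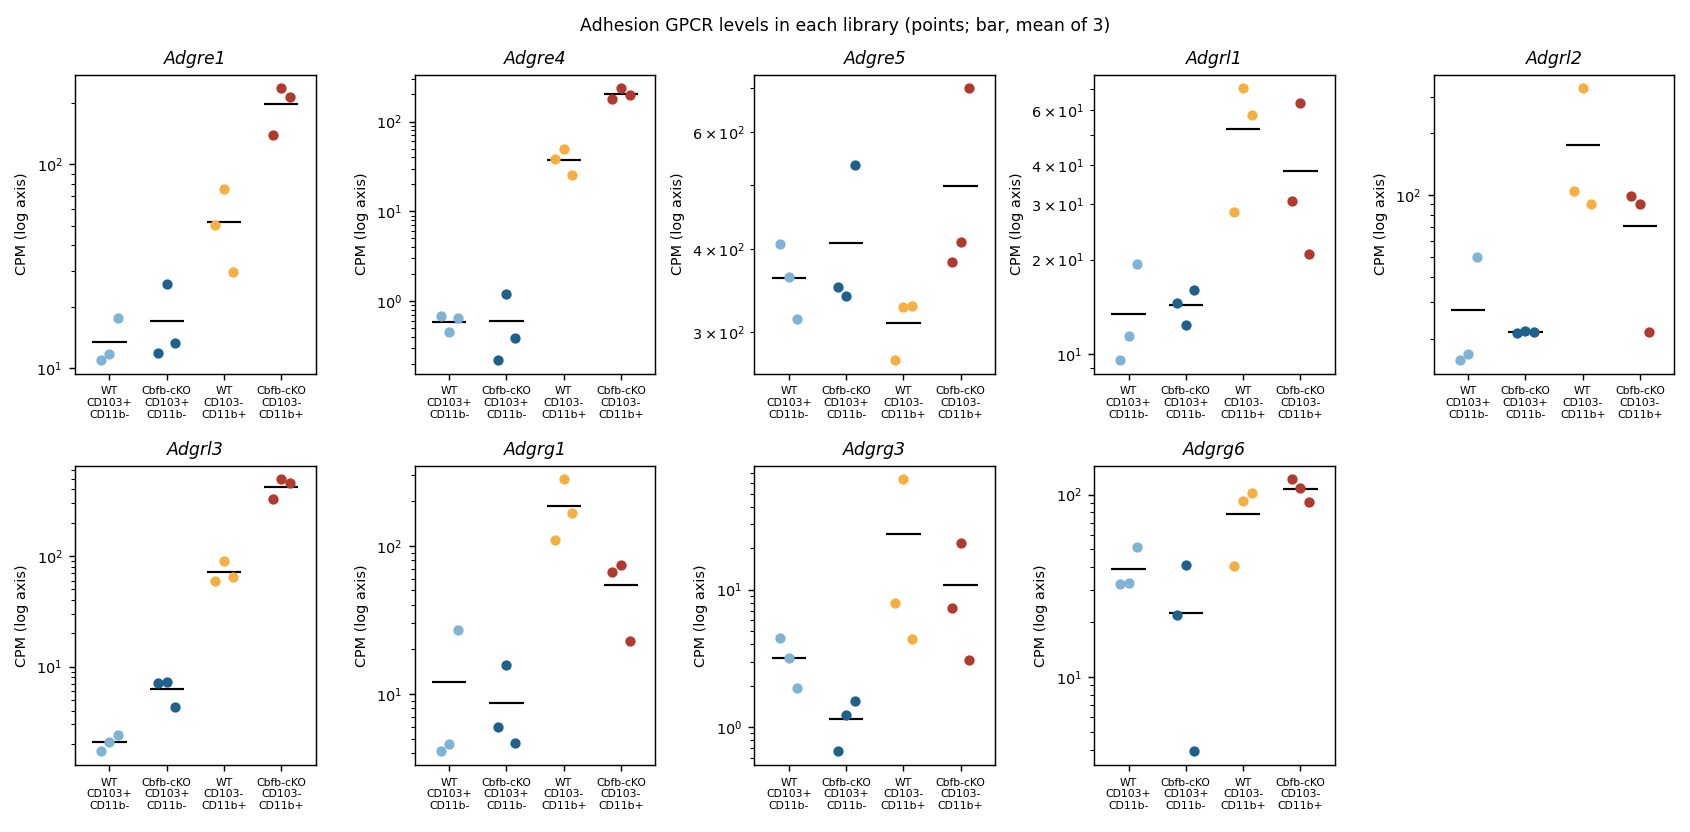
Level of each of the 9 genes described in CPM on a log axis, with 1 point for each library, a bar at the mean of 3 and the 4 groups side by side. For *Adgrl3* the cKO CD103-CD11b+ points lie at 324 to 492 CPM above the WT points at 59.5 to 91.0, and for *Adgre4* and *Adgre1* the same groups are also apart.

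Other genes used to recognise macrophages were not called with *Adgre1*. Of 10 macrophage markers, 0 were called in either direction between cKO and WT CD103-CD11b+ libraries, none was at 0 in a whole group, and none had an unadjusted p under 0.05. Of all tested genes 1.61% were called, and 3590 of 20580 had an unadjusted p under 0.05. The sum of the 10 markers is given next. Their sum was 474 to 745 CPM in WT and 517 to 666 CPM in cKO libraries. *Fcgr1*, which encodes the Fc receptor CD64, averaged 7.56 CPM in WT and 6.44 CPM in cKO libraries (log2 fold change -0.21, standard error 0.62). *C1qb*, a complement subunit, averaged 41.6 and 41.4 CPM (log2 fold change 0.00, standard error 0.76).

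**Figure D3:**
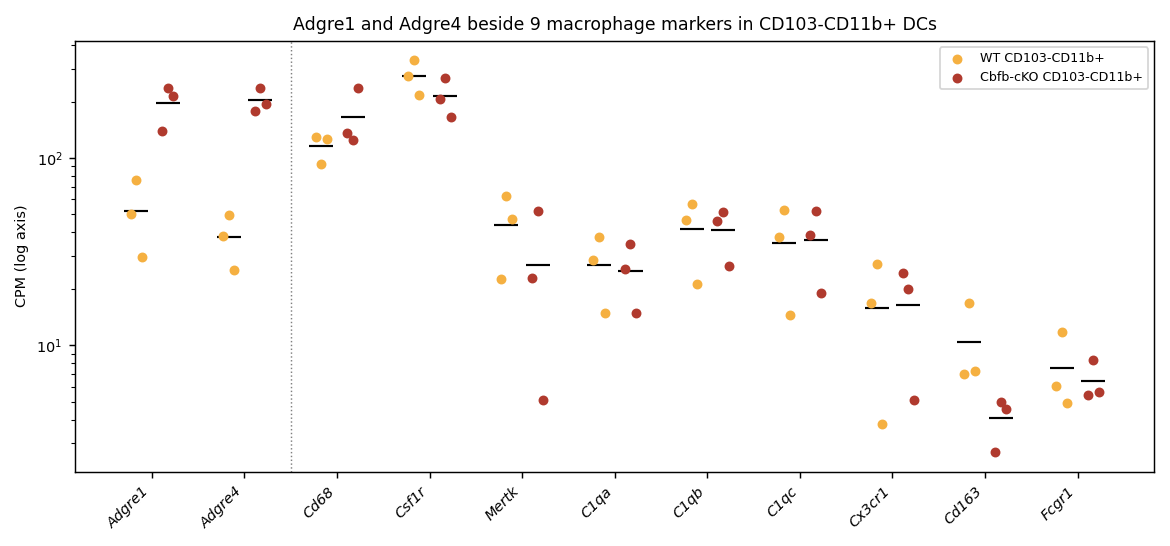
*Adgre1* and *Adgre4* (left of the dotted line) and 9 of the 10 macrophage markers in WT (orange) and cKO (red) CD103-CD11b+ libraries, in CPM on a log axis, with 1 point for each library and a bar at the mean. The cKO points of *Adgre1* (140 to 237 CPM) and *Adgre4* (178 to 235 CPM) lie above the WT points, whereas those of the markers shown other than *Cd163* overlap.

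In 2 other leukocyte lists a single marker was called higher with the 3 genes. The 7 neutrophil or eosinophil markers summed to 55.8 to 76.3 CPM in WT and 128 to 199 CPM in cKO CD103-CD11b+ libraries. Much of the sum was *Csf3r*, the receptor for granulocyte colony-stimulating factor, the 1 of 6 tested that was called (39.3 against 107 CPM, adjusted p = 0.0353 by edgeR's quasi-likelihood test). *Siglecf*, found on eosinophils, averaged 15.4 and 34.1 CPM (log2 fold change 1.14, adjusted p = 0.183 by the same test) and *Ccr3*, the eotaxin receptor, 2.82 and 2.82 CPM. The neutrophil genes *S100a8* and *S100a9* averaged 1.4 and 2.33 CPM in WT and 1.49 and 2.2 CPM in cKO libraries, and *Ly6g* had 1 count in each group. *Cxcr2*, a chemokine receptor of neutrophils, had 7.44, 4.0 and 5.53 CPM in WT and 11.4, 16.2 and 15.3 CPM in cKO libraries, which did not overlap but were not called (log2 fold change 1.32, standard error 0.65, adjusted p = 0.32 by the same test). The 5 B cell markers summed to 14.5 to 72.3 CPM in WT and 65.8 to 382 CPM in cKO libraries, which overlap, and *Ms4a1*, which encodes CD20, was the 1 of 5 that was called (5.49 against 73.0 CPM). The sums of the epithelium markers (154 to 257 CPM in WT and 38.3 to 61.7 CPM in cKO libraries) and of the cDC2 markers (923 to 987 and 1010 to 1580 CPM) did not overlap either, with 0 genes called in these lists. Most of the epithelium sum was *Cdh1* (155 against 34.2 CPM). Of the cDC2 markers *Sirpa* (331 against 534 CPM) and *Itgam* (90.6 against 164 CPM) had higher cKO means. *Cd209a* (158 against 143 CPM), *Clec10a* (47.4 against 38.3 CPM) and *Irf4* (335 against 333 CPM) did not, and the median log2 fold change of the list was -0.01. The part of the cells behind all these markers in the levels of *Adgrl3*, *Adgre4* and *Adgre1* was not tested. In bulk libraries such as these, a change in the share of cells that express a gene and a change in RNA per cell cannot be told apart. Over the 13 marker lists, the called markers in this comparison were *Csf3r* and *Ms4a1*, both higher, and *Itgae*, which encodes CD103 and was lower.

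The other genes were not called in CD103-CD11b+ DCs. *Adgre5* encodes CD97, which binds CD55, and had 272, 327 and 328 CPM in WT and 383, 410 and 700 CPM in cKO libraries. The groups did not overlap, but the fold change was only 1.61 (log2 0.69, standard error 0.24, adjusted p = 0.179 by edgeR's quasi-likelihood test). Without the highest library, cKO CD103-CD11b+ replicate 3, the log2 value was 0.36. In *Adgre5*, 23.8% of exon bases are shared with *Ddx39* on the opposite strand, and reads there cannot be assigned without strand.

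*Adgrg1* encodes GPR56, a receptor for collagen III and transglutaminase 2 that is known from cytotoxic lymphocytes and the developing cortex. It was at 109, 280 and 166 CPM in WT and 66.5, 74.0 and 22.9 CPM in cKO CD103-CD11b+ libraries. All cKO libraries were lower, yet the test did not call it (log2 fold change -1.74, standard error 0.69, adjusted p = 0.228 by edgeR's quasi-likelihood test). *Adgrl2*, encoding latrophilin-2, had 104, 331 and 90.5 CPM in WT and 99, 90.2 and 21.4 CPM in cKO libraries, which overlap (log2 -1.30, or -0.44 without WT replicate 2, standard error 0.63, adjusted p = 0.315 by the same test). The endothelium markers were also lower, with sums of 1170 to 3180 CPM in WT and 347 to 1350 CPM in cKO libraries and a median log2 fold change of -1.08 over the 5 genes, 0 of them called. Their part in the lower values was not tested.

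*Adgrl1*, encoding latrophilin-1, the receptor for the spider toxin α-latrotoxin, had 28.4, 70.3 and 57.6 CPM in WT and 30.8, 63.1 and 20.9 CPM in cKO CD103-CD11b+ libraries. *Adgrg6*, encoding GPR126, which Schwann cells need to form myelin, had 40.7, 92.6 and 102 CPM in WT and 121, 109 and 91.3 CPM in cKO libraries. In these 2 genes the genotypes overlapped. *Adgrg3*, encoding GPR97 of granulocytes, had 8.03, 63.3 and 4.36 CPM in WT and 7.41, 21.7 and 3.06 CPM in cKO libraries. Its log2 fold change of -1.19 (standard error 0.90) rested on WT replicate 2, without which it was 0.81.

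In the CD103+CD11b- subset, *Adgrl3* was the gene of the 10 that was called, and it was higher in cKO libraries. All tested genes were called in 1.02% of cases, 0.224% as higher. The libraries had 1.71, 2.06 and 2.43 CPM in WT and 7.10, 7.32 and 4.30 CPM in cKO mice, from totals of 29 and 73 counts. The groups did not overlap, and the fold change was 2.98 (log2 1.58, standard error 0.31, adjusted p = 0.042 by edgeR's quasi-likelihood test). The adjusted p rose to between 0.0503 and 0.168 when 1 of 8 libraries was left out, namely any WT CD103+CD11b- replicate, cKO CD103+CD11b- replicate 1 or 2, WT CD103-CD11b+ replicate 3, or cKO CD103-CD11b+ replicate 2 or 3. With both libraries that stood apart left out it was also not called (log2 1.73, adjusted p = 0.0931 by the same test). The log2 value stayed between 1.46 and 1.75 in the fits without 1 library.

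*Adgre4* was near absent in CD103+CD11b- DCs, with 2, 2 and 4 counts in WT and 1, 5 and 1 counts in cKO libraries, and no fold is given between levels this low. *Adgre1* had 10.9, 11.7 and 17.6 CPM in WT and 11.8, 25.9 and 13.3 CPM in cKO libraries, which overlap. *Adgrg3* had 4.45, 3.20 and 1.94 CPM in WT and 0.666, 1.22 and 1.56 CPM in cKO libraries, which did not overlap but were not called (log2 fold change -1.46, standard error 1.12). *Adgrg6* had 32.5, 32.7 and 51.4 CPM in WT and 22, 41 and 3.91 CPM in cKO libraries, with cKO replicate 3 far below the rest. *Adgre5* had 407, 363 and 314 CPM in WT and 351, 340 and 535 CPM in cKO libraries. The latrophilins *Adgrl1* and *Adgrl2* and *Adgrg1* also overlapped between genotypes. For *Adgrl2* and *Adgrg1* the sign turned from negative to positive without WT CD103+CD11b- replicate 3, with log2 values of 0.40 and 1.03. In this subset the markers that were called were *Irf4*, *Cd209a* and *Sirpa* of the cDC2 list, all 3 lower in cKO libraries. The sums of 5 other lists did not overlap between genotypes either, with 0 genes called in any of them. The pDC (plasmacytoid DC) markers summed to 610 to 1500 CPM in WT and 209 to 512 CPM in cKO libraries (median log2 fold change -1.8), and the endothelium markers to 197 to 383 CPM and 75.1 to 191 CPM (median -1.27). The macrophage sum was also lower in cKO libraries (170 to 210 against 137 to 169 CPM), and the neutrophil or eosinophil sum (11.5 to 14.4 against 14.5 to 39.8 CPM) and the cDC1 sum (2860 to 3950 against 3980 to 4740 CPM) were higher. Their part in the change of *Adgrl3* was not tested.

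**Figure D4:**
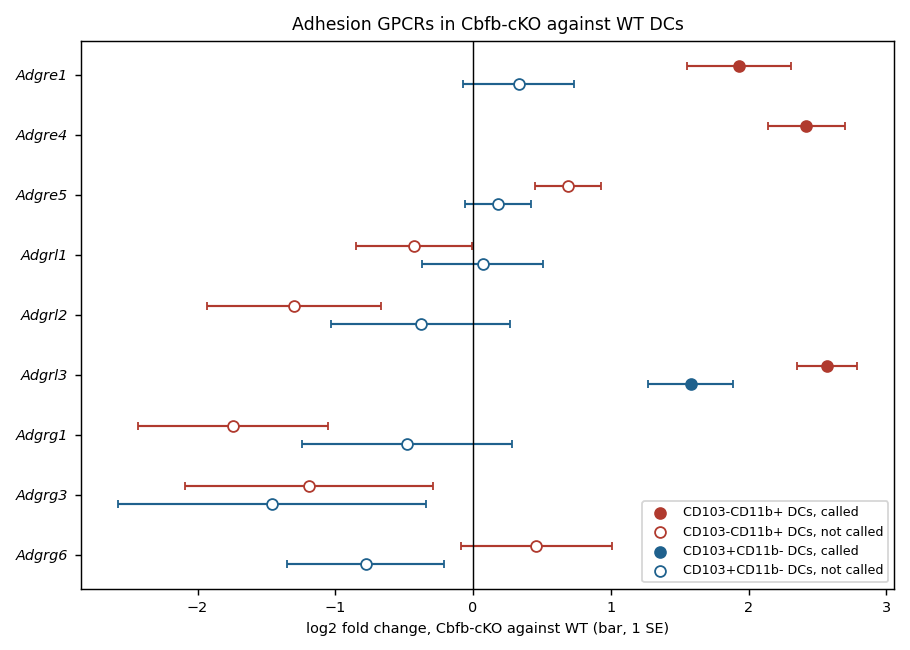
Log2 fold change of each gene in Cbfb-cKO against WT libraries, with 1 standard error, in CD103-CD11b+ (red) and CD103+CD11b- (blue) DCs (3 libraries a group). Filled points were called across all genes, and *Adgre4* has no point in CD103+CD11b- DCs, where its counts were too low for a fold. *Adgrl3* is filled in both subsets (2.57 and 1.58), *Adgre4* and *Adgre1* in CD103-CD11b+ DCs only.

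Whether the cKO effect differed between the subsets was tested as an interaction, and 0 of the 10 genes were called, against 0.651% of all tested genes. At an unadjusted p under 0.05, 3 genes differed, *Adgre4*, *Adgre1* and *Adgrl3*, against 2284 of the 20580 tested genes. The log2 effect in CD103-CD11b+ DCs minus that in CD103+CD11b- DCs was 1.60 for *Adgre1* (standard error 0.54, adjusted p = 0.281) and 0.99 for *Adgrl3* (standard error 0.39, adjusted p = 0.355), by edgeR's quasi-likelihood test. For *Adgre4* it was 2.35 (adjusted p = 0.234 by the same test), a value that depends on how its few counts in CD103+CD11b- DCs are handled. A cKO effect particular to 1 subset was therefore not shown for any of the 10.

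The subsets themselves were compared within each genotype, and the comparisons with cKO share these libraries. In WT mice 6 of the 10 genes were higher in CD103-CD11b+ than in CD103+CD11b- DCs and 0 were lower, while 18.8% of all tested genes were called and 11.8% were higher. In cKO mice 6 were higher and 0 lower, against 16.1% called and 9.26% higher among all tested genes. Without both libraries that stood apart 8 were called in cKO mice, with *Adgrl2* and *Adgrg3* added, against 19.1% of all tested genes. *Adgre4*, *Adgrl3*, *Adgre1*, *Adgrg1* and *Adgrl1* were called in both genotypes, *Adgrl2* in WT mice and *Adgrg6* in cKO mice. The median log2 difference over the 10 genes was 2.29 in WT and 2.43 in cKO mice, and over all tested genes 0.07 and 0.11.

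*Adgre4* was close to its detection limit in CD103+CD11b- DCs of both genotypes. In WT mice 432 counts of it in the 3 CD103-CD11b+ libraries stood against 8 in the 3 CD103+CD11b- libraries, a ratio of 63.0 in scaled counts with a 95% counting interval of 31.7 to 147. In cKO mice 2160 counts stood against 7, a ratio of 324 with an interval of 157 to 808, and 5 of the 7 counts were in 1 library, replicate 2. Without it the fitted log2 difference went from 8.26 to 9.32. The CD103+CD11b- levels lie near the limit of 3 counts per library, so the size of these ratios is uncertain, and the intervals cover counting error only. *Adgrl3* was 33.2-fold higher in CD103-CD11b+ DCs of WT mice (log2 5.05, standard error 0.28) and 66.1-fold higher in those of cKO mice (log2 6.05, standard error 0.27). *Adgre1* was 3.81-fold higher (log2 1.93, standard error 0.39, adjusted p = 0.00913) in WT and 11.5-fold higher (log2 3.53, standard error 0.41, adjusted p = 0.000207) in cKO mice, by edgeR's quasi-likelihood test. The calls of these 3 genes between subsets held without any single library. Macrophage markers were also higher in CD103-CD11b+ DCs, with 7 of 10 called higher in WT and 7 in cKO mice. Of all tested genes 11.8% and 9.26% were called higher. The marker sums were 170 to 210 CPM in CD103+CD11b- and 474 to 745 CPM in CD103-CD11b+ libraries of WT mice. In cKO mice they were 137 to 169 and 517 to 666 CPM. The part of macrophages in the level of *Adgre1* was not tested.

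*Adgrg1*, *Adgrl2* and *Adgrl1* were also higher in CD103-CD11b+ DCs, and their levels are given beside the markers of endothelium and stroma. *Adgrg1* was at 4.10, 4.58 and 27.2 CPM in WT CD103+CD11b- against 109, 280 and 166 CPM in WT CD103-CD11b+ libraries (log2 3.88, standard error 0.77, adjusted p = 0.00778 by edgeR's quasi-likelihood test). The high value among the former was replicate 3, the library with 388 CPM of stroma markers, and without it the log2 difference was 5.33 (5.39 without both libraries that stood apart). In cKO mice *Adgrg1* was at 5.99, 15.6 and 4.69 CPM against 66.5, 74.0 and 22.9 CPM (log2 2.62, adjusted p = 0.0378 by the same test). The lowest value of the latter was in replicate 3, the library with the lowest stroma and endothelium sums of its group, 51.0 and 347 CPM. The call in cKO mice was lost, with an adjusted p of 0.0881 to 0.134, without cKO CD103+CD11b- replicate 1 or 3 or cKO CD103-CD11b+ replicate 1 or 2. Without cKO CD103+CD11b- replicate 2 the log2 difference was 3.34.

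*Adgrl2* was at 15.7, 16.9 and 49.8 CPM in WT CD103+CD11b- libraries, with replicate 3 once more the highest. Against the 104, 331 and 90.5 CPM of WT CD103-CD11b+ libraries the log2 difference was 2.64 (standard error 0.66, adjusted p = 0.0209 by edgeR's quasi-likelihood test). Without WT CD103+CD11b- replicate 3 it was 3.35, and without WT CD103-CD11b+ replicate 2 it was 1.77. It was not called, with adjusted p of 0.0747 to 0.0857, without WT CD103+CD11b- replicate 1 or 2 or WT CD103-CD11b+ replicate 2. In cKO mice *Adgrl2* was at 21.3, 21.7 and 21.5 CPM in CD103+CD11b- and 99, 90.2 and 21.4 CPM in CD103-CD11b+ libraries. The last of these, replicate 3, was at the level of the other subset, and without it the gene was called (adjusted p = 0.0345 by the same test, against 0.098 with it).

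*Adgrl1* was at 9.57, 11.4 and 19.4 CPM in WT CD103+CD11b- libraries, below all 3 WT CD103-CD11b+ libraries (log2 1.93, standard error 0.44, adjusted p = 0.0148 by edgeR's quasi-likelihood test). Without WT CD103+CD11b- replicate 1 or 2 the adjusted p was 0.0623 or 0.0656. In cKO mice it was at 14.6, 12.4 and 16.0 CPM against 30.8, 63.1 and 20.9 CPM (log2 1.43, adjusted p = 0.049 by the same test). That call was lost without any 1 of 8 libraries (adjusted p 0.0584 to 0.214): WT CD103+CD11b- replicate 1 or 2, WT CD103-CD11b+ replicate 3, any cKO CD103+CD11b- replicate, and cKO CD103-CD11b+ replicate 1 or 2.

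As a description over the 12 libraries, with each group's mean removed on the log2 scale, the correlation of *Adgrg1* with the stroma sum was 0.93 and with the endothelium sum 0.83. For *Adgrl2* these values were 0.77 and 0.81, and for *Adgrl1* 0.76 and 0.65. For *Adgrl3* they were 0.32 and 0.42 and for *Adgre5* -0.60 and -0.61, while the endothelium value was 0.60 for *Adgre4*, 0.64 for *Adgrg3* and 0.57 for *Adgrg6*. By Spearman's rank the endothelium value of *Adgrl3* was 0.62 and that of *Adgrl1* 0.57, so these 2 genes were not separated by it. With the macrophage sum the Pearson values were 0.85 for *Adgrg3*, 0.75 for *Adgre4*, 0.68 for *Adgre1*, 0.61 for *Adgrl2* and 0.23 for *Adgrl3*, and between -0.10 and 0.39 for the other genes described. Points of such a correlation share a library, its depth and its scaling, so no p is given, and the part of these cells in the levels of the genes was not tested. *Adgrl3* in cKO CD103-CD11b+ replicate 3, the library poorest in endothelium and stroma markers of its group, was at 457 CPM, within the range of the other 2.

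**Figure D5:**
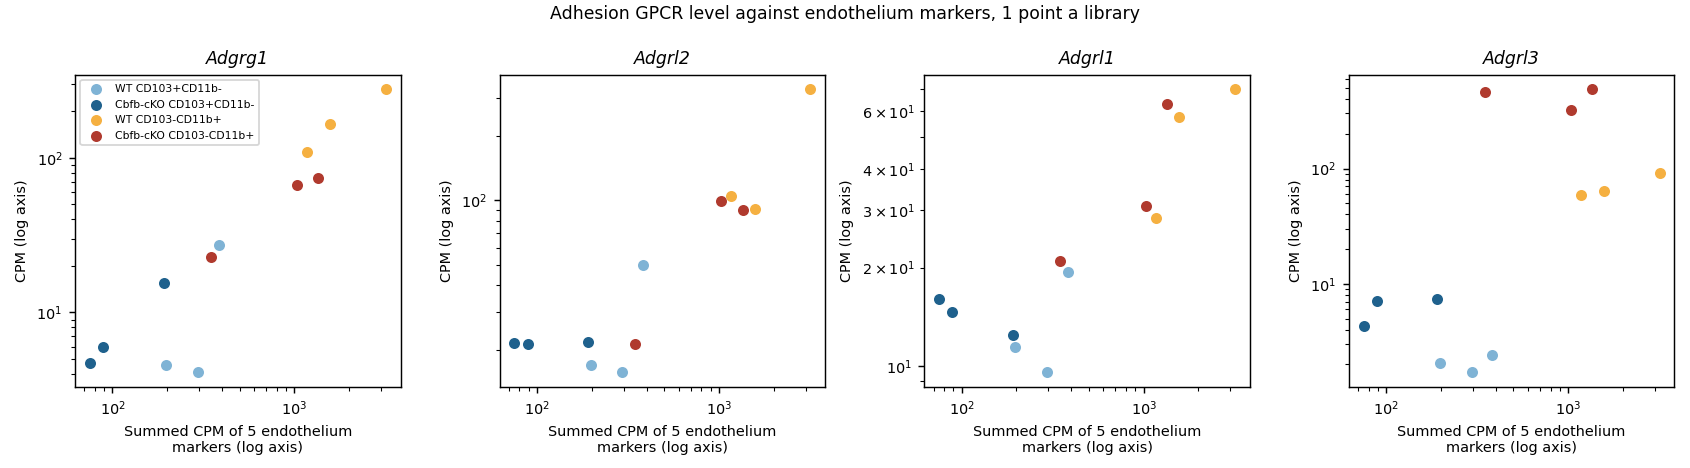
Level of *Adgrg1*, *Adgrl2*, *Adgrl1* and *Adgrl3* in CPM against the summed CPM of 5 endothelium markers, both on log axes, with 1 point for each of the 12 libraries coloured by group. *Adgrg1* goes from 4.10 CPM to 280 CPM, the latter in the library with the highest marker sum (3180 CPM), and in the *Adgrl3* panel the cKO CD103-CD11b+ points lie at 324 to 492 CPM over marker sums of 347 to 1350 CPM.

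The calls of *Adgrg6* and *Adgrg3* between subsets depended on the fit. *Adgrg6* was called in cKO mice (log2 2.24, standard error 0.58, adjusted p = 0.0237 by edgeR's quasi-likelihood test), where cKO CD103+CD11b- libraries had 22, 41 and 3.91 CPM and CD103-CD11b+ libraries 121, 109 and 91.3 CPM. The call was lost, with adjusted p of 0.0551 to 0.0851, without cKO CD103+CD11b- replicate 1 or cKO CD103-CD11b+ replicate 1 or 2, and without cKO CD103+CD11b- replicate 2 the log2 difference was 2.99. In WT mice *Adgrg6* had a log2 difference of 1.0 (standard error 0.56, adjusted p = 0.234 by the same test). *Adgrg3* reached 2.99 in WT (standard error 0.98, adjusted p = 0.0543) and 3.27 in cKO mice (standard error 1.09, adjusted p = 0.063), just above the threshold by the same test. Leaving out WT CD103-CD11b+ replicate 2, at 63.3 CPM, brought the WT value to 0.95, and leaving out cKO CD103-CD11b+ replicate 2 brought the cKO value to 2.26 (adjusted p = 0.233 by the same test). *Adgrg3* was called in both genotypes by DESeq2, by edgeR's likelihood ratio test and with no filter on low counts. Without both libraries that stood apart *Adgrg3* was called in cKO mice (log2 3.68, adjusted p = 0.0485 by edgeR's quasi-likelihood test).

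In cKO mice the replicate numbers were taken to pair the libraries of the 2 subsets, from correlated deviations and not from the labels. A fit with the replicate block within each genotype called 8 of the 10 genes in place of 6. The share called among all tested genes went from 16.1% to 21.5%. *Adgrg3* was then called higher in CD103-CD11b+ DCs (log2 3.14, adjusted p = 0.0393) by edgeR's quasi-likelihood test.

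The genes most like the 3 members that varied most between groups were found by Pearson's r of log2 CPM over the 12 libraries, among 10684 genes with a mean of 10 CPM or more. For *Adgre4* they included *Oas2* (r = 0.989) and *Csf3r* (0.986). For *Adgrl3* they were *Gm43594* (0.981), *Hjurp* (0.981) and *Adgre4* (0.978), and *Gm43594* is an annotated transcript that lies inside *Adgrl3* on the same strand, so it is not a separate witness. For *Adgrg1* they were *Pdgfd* (0.995), *Meis2* (0.988) and *Fkbp9* (0.988). These values are taken over all 4 groups, so differences between subsets and between genotypes enter them, and they describe these libraries only.

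Of 20 further adhesion GPCR genes 15 were tested, and 0 were called by edgeR's quasi-likelihood test between cKO and WT libraries in CD103-CD11b+ DCs (2 at an unadjusted p under 0.05) or in CD103+CD11b- DCs (3 at an unadjusted p under 0.05). Of all tested genes 1.61% and 1.02% were called in these comparisons, so nothing is read from a count of 0. At an unadjusted p under 0.05 there were 3590 and 2166 of the 20580 tested genes. *Adgra2*, which encodes GPR124, had log2 fold changes of 0.30 (standard error 0.26) and 0.22 (standard error 0.26) in the 2 subsets. *Adgrf5*, which encodes GPR116 and had the most counts of these genes, averaged 684 CPM in WT and 266 CPM in cKO CD103-CD11b+ libraries (log2 -1.36, standard error 0.98). Chosen after its values were seen, *Celsr1*, a planar polarity cadherin, had 59.9, 43.0 and 59.3 CPM in WT and 30.5, 13.6 and 9.18 CPM in cKO CD103-CD11b+ libraries (log2 -1.58, standard error 0.37, adjusted p = 0.0586 by the same test). In CD103+CD11b- DCs it had 33.2, 23.6 and 33.3 CPM in WT and 12.4, 9.03 and 14.1 CPM in cKO libraries (log2 -1.35, standard error 0.38, adjusted p = 0.148 by the same test). The genotypes did not overlap in either subset. *Adgrg2* had 8, 2 and 4 counts in WT and 0 in all cKO CD103-CD11b+ libraries. Between subsets of WT mice 5 of the 15 were higher in CD103-CD11b+ DCs and 0 lower, against 18.8% called and 11.8% higher among all tested genes. They were *Adgrl4* (183 against 5.96 CPM) and *Adgrf5* (684 against 47.5 CPM), both typical of endothelium, *Adgra3* (36.7 against 4.26 CPM), *Celsr2* (8.78 against 1.3 CPM) and *Adgrg2*. *Adgrg2* had no count in any WT CD103+CD11b- library and 1.13 CPM in CD103-CD11b+ libraries. It was tested only because of the 8 counts in WT CD103-CD11b+ replicate 1, a library of the higher group, so nothing is read from its call. In cKO mice *Adgrl4* alone was called, at 79.4 against 3.41 CPM, where 16.1% of all tested genes were.

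Among 23 genes for binding partners of these receptors 20 were tested. Between genotypes *Itga5*, encoding the α5 integrin chain that CD97 binds, was called lower in CD103-CD11b+ DCs (205 CPM in WT and 102 CPM in cKO libraries, standard error 0.15 on the log2 scale, adjusted p = 0.0114 by edgeR's quasi-likelihood test), 1 of 20 against 1.61% of all tested genes. None was called in CD103+CD11b- DCs, where 4 had an unadjusted p under 0.05 and 1.02% of all tested genes were called. Of the 20580 tested genes, 2166 had such an unadjusted p there. Between subsets of WT mice 5 were higher in CD103-CD11b+ DCs and 0 lower, against 18.8% called and 11.8% higher among all tested genes. Among them were *Tgm2*, a transglutaminase that GPR56 binds (478 against 122 CPM), and *Tenm3*, a teneurin ligand of latrophilins (15.2 against 2.33 CPM). *Col4a1*, *Flrt1* and *Prnp* were the other 3. In cKO mice *Tgm2* (660 against 115 CPM), *Tenm3* and *Thy1* were higher, and *Itga5* and *Cd81* were lower, 5 of 20 against 16.1% of all tested genes.

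Of 25 genes for G proteins, guanine nucleotide exchange factors, GPCR kinases, arrestins and adenylyl cyclases, all 25 were tested and 0 were called between cKO and WT libraries by edgeR's quasi-likelihood test in either subset, with 5 and 3 genes at an unadjusted p under 0.05 in CD103-CD11b+ and CD103+CD11b- DCs and 1.61% and 1.02% of all tested genes called. At that unadjusted limit there were 3590 and 2166 of the 20580 tested genes. *Gna13*, the G protein α subunit through which many adhesion GPCRs signal, had the most counts of this list. Between subsets *Gna15* was lower in CD103-CD11b+ DCs of WT (21.6 against 89.0 CPM) and of cKO mice (22.9 against 81.0 CPM), and so was *Gnai3*. *Gnai1* was higher in both genotypes. *Arhgef12* was also higher in WT mice (306 against 48.2 CPM), and *Arhgef1*, *Grk3* and *Arrb2* in cKO mice with log2 differences of 0.41, 0.65 and 0.49. The list thus had 2 higher and 2 lower in WT and 4 higher and 2 lower in cKO mice, of 25, against 18.8% and 16.1% of all tested genes called.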

How the data were processed

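The 12 RNA-seq libraries (3 per group) were made by a RamDA-seq protocol adapted to bulk input. The authors trimmed the reads (Trim Galore), mapped them to mm10 (STAR 2.7), removed reads of low mapping quality and duplicates, and counted them per Ensembl gene with HTSeq without strand. They deposited raw counts per gene, 1 file per library. Lines of the counter that name no gene were dropped (reads on no gene, 59.68% to 66.13% of reads listed).

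Gene symbols and exon lengths came from GENCODE M21 (GRCm38), which matched 53706 of 53801 IDs. A gene was tested if any library had 5 or more counts on it, 20580 in all, in 1 model of the 4 groups with TMM scaling and the quasi-likelihood test of edgeR 4.0.16 (R 4.3.3), adjusted by Benjamini-Hochberg. A call needed an adjusted p under 0.05 and a fold change over 1.3. The study used these limits to choose genes for Gene Ontology enrichment, and stricter ones for its other gene lists. The procedure was tested on simulated counts. No 2 libraries of a group agreed within sampling noise (chi-square per degree of freedom 2.46 to 23.19).

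The 10 genes, the other lists and the marker lists were chosen with earlier results of these data known. The text was to name all 10 genes, every called gene of the 3 related lists and those with the most counts, and for likeness the 3 genes with the highest r. A few of these genes, 1 of the 10 among them, are not reported here, though counts and medians over a list include them. Deviations of same-numbered libraries from their group means correlated at 0.188 to 0.578 between the subsets of cKO mice, all over 0.1, so there the numbers were taken to pair the libraries. With 3 libraries per group, p measures the spread between these libraries.

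Alternatives were RLE scaling, DESeq2 1.42.0, edgeR's likelihood ratio test, 3 other filters, fits to the libraries of a comparison alone, replicate blocks, other limits of a call and each library left out. Leaving out both libraries that stood apart was chosen after seeing the data.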

Additional observations from a re-analysis of the deposited data

How the results depend on the processing

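In CD103-CD11b+ DCs, *Adgrl3* and *Adgre4* kept their call between genotypes under every alternative that held them in the fit, and *Adgre1* lost it in the fit to the 6 libraries of the comparison alone, without both libraries that stood apart, and without 6 of the 12 libraries in turn. The count was then 2, as it was where 5 or more counts in every library were asked for, a filter that removes *Adgre4* and *Adgrg3* from the fit. In CD103+CD11b- DCs the count fell from 1 to 0 in the fit to the comparison alone, without both libraries that stood apart, and in 8 of 12 fits without 1 library (range 0 to 1). It was 0 in all fits of the difference between subsets, and without 1 library it ranged from 4 to 7 for the subsets of WT mice and from 3 to 8 for those of cKO mice, while the share called of all tested genes ran from 6.88% to 21.3% and from 10.4% to 17.7%. Without both libraries that stood apart it was 8 for the latter, with *Adgrl2* and *Adgrg3* added. DESeq2, the likelihood ratio test and the fit with no filter also called *Adgrg3* in both genotypes, the first 2 of these also *Adgrl2* in cKO mice, and the fit to the comparison alone called *Adgrg3* but not *Adgrg6* or *Adgrl1* in cKO mice. The cause was not tested.

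Signs turned for genes that were not called. Without both libraries that stood apart, the log2 fold change of cKO against WT in CD103+CD11b- DCs was 0.39 for *Adgrl2* and 1.04 for *Adgrg1*, and the difference between subsets of cKO mice was -0.04 for *Adgre5*. Without 1 library, log2 fold changes of cKO against WT ranged in CD103-CD11b+ DCs from -2.19 to 0.81 for *Adgrg3*. In CD103+CD11b- DCs they ranged from -0.12 to 0.59 for *Adgre1*, -0.06 to 0.29 for *Adgre5*, -0.11 to 0.44 for *Adgrl1*, -0.64 to 0.40 for *Adgrl2* and -1.20 to 1.03 for *Adgrg1*. The difference of the effect between subsets ranged from -0.73 to 2.26 for *Adgrg3*, and the difference between subsets of cKO mice from -0.04 to 0.53 for *Adgre5*.

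With the replicate number as a block over all groups, 3 genes were called in CD103-CD11b+ and 1 in CD103+CD11b- DCs, 7 for the subsets of WT mice and 7 for those of cKO mice, where *Adgrg3* was added (adjusted p = 0.0467 and 0.0298 by edgeR's quasi-likelihood test). The share of all tested genes called was then 4.13%, 2.54%, 23.7% and 21%, against 1.61%, 1.02%, 18.8% and 16.1% without the block. Same-numbered libraries deviated together by r of -0.033 to 0.564 between genotypes in CD103-CD11b+ DCs, -0.246 to 0.172 in CD103+CD11b- DCs and -0.16 to 0.53 between WT subsets. In these comparisons 3, 1 and 4 of 6 libraries correlated best with their own number, and the numbers were not taken to pair the libraries. With so few libraries per group, r cannot settle whether same-numbered WT libraries came from the same mouse. Among the genes described, the block within each genotype changed no call other than that of *Adgrg3* in cKO mice. Of all genes, 331 were called in CD103-CD11b+ DCs, 1136 by DESeq2, 1054 by the likelihood ratio test and 27 in the fit to the comparison alone, so the background of the members moves with the test.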
